A study of Rattus norvegicus with 6 samples.

Results

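The transcripts described here belong to the NR4A, EGR and other early-response regulators, 10 genes chosen by name: Nr4a1, Nr4a2, Nr4a3, Egr1, Klf10, Btg2, Dusp1, Crem, Cebpb and Cebpd. They were measured in the adrenal of the spontaneously hypertensive rat (SHR) and, as its usual normotensive counterpart, of the Wistar-Kyoto rat (WKY) on 3 Affymetrix RG-U34A arrays each. The labels give strain, tissue and replicate number, name no treatment, and do not state age, sex or the number of animals behind a sample. Nothing says that replicates came from separate animals, so p-values reflect the scatter of these samples alone, and that scatter may be technical. The array's annotation named 26 probe sets (groups of short probes that together read 1 transcript) for 9 of the 10 genes, where 4736 genes in all had at least 1 probe set naming no other gene. Btg2 was not analysed here. A filter on mean intensity passed 22 of the 26 probe sets, at least 1 for each of the 9 genes, and the other 4 are given by their values.

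Early-response genes are transcribed within minutes of a hormonal, neural or mechanical stimulus, without new protein synthesis, and their short-lived mRNAs then decline. The NR4A genes encode orphan nuclear receptors, and Egr1 and Klf10 encode zinc-finger transcription factors. In the adrenal cortex, corticotropin acting through cyclic AMP induces Nr4a1, Nr4a2 and Nr4a3, whose products bind promoters of steroidogenic enzymes. In the medulla, Egr1 is known as a regulator of the genes of catecholamine synthesis. Dusp1 encodes a phosphatase that switches off MAP kinases, and Crem encodes activators and, from an internal promoter, the inducible repressor ICER, which closes the cyclic AMP response. Cebpb and Cebpd encode leucine-zipper factors of the acute-phase response.

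Promoters of the members that varied most are shown because cyclic AMP and growth-factor signals reach these genes through short DNA motifs. Each run is the 250 bases before an annotated transcript start in RefSeq on GRCr8, written 5′ to 3′ on the gene's strand. Capitals mark the cyclic AMP response element (CRE) in its short form TGACG or its full form TGACGTCA, searched on both strands, and in Egr1 also the CArG box bound by serum response factor. A full CRE contains the short form on both strands. The Nr4a1 window lies at chr7:134259888-134260137 on the plus strand, the Nr4a2 window at chr3:62104888-62105137 on the minus strand and the Egr1 window at chr18:26736828-26737077 on the plus strand. The Dusp1 window lies at chr10:17184603-17184852 and the Crem window, the most downstream of 3 annotated starts, at chr17:58985240-58985489, both on the plus strand.
Nr4a1: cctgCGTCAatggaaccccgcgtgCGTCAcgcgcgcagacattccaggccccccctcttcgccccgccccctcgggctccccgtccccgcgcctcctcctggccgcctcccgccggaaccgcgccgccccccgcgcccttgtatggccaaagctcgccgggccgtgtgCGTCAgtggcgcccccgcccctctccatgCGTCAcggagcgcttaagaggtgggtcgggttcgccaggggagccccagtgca
Nr4a2: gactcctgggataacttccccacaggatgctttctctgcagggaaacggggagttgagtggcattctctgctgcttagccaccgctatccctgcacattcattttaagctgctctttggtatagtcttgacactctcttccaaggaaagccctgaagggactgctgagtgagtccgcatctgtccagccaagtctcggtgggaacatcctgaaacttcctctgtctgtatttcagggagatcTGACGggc
Egr1: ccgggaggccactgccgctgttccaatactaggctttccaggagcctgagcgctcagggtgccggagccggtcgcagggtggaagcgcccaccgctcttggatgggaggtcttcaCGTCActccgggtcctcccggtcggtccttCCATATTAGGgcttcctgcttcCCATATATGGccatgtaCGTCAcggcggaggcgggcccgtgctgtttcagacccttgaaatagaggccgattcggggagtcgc
Dusp1: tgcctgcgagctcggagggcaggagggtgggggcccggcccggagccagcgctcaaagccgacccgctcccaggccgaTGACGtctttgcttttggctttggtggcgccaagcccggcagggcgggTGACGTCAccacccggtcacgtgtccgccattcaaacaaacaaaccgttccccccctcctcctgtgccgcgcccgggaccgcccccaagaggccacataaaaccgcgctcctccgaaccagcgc
Crem: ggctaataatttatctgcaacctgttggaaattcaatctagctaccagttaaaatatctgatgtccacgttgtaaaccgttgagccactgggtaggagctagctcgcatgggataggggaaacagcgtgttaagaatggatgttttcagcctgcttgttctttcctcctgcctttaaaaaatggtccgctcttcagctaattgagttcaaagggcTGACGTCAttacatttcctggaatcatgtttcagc

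The short CRE was present at 4 places before Nr4a1, 82 to 78 bases and 53 to 49 bases before the start being the nearest to it. Nr4a2 had 1 short CRE. Egr1 had 2, on either side of a pair of CArG boxes 105 to 96 and 83 to 74 bases before the start. A full CRE stood 124 to 117 bases before Dusp1 and 35 to 28 bases before this Crem start. Another full CRE stood 56 to 49 bases before the Crem start numbered 2, whose window is not printed. Which of the Crem starts makes ICER was not determined here. Promoter entries were matched for 7 of the 10 genes (9 entries), without Nr4a3, Klf10 and Cebpd. All 9 entries held the short CRE and 4 the full CRE, against 18.2% and 1.59% of 33469 promoter windows of the same length, while the CArG box was in 1 entry and in 1.5% of windows. The entries are not separate genes, as Crem has starts 1, 2 and 3 among them. The full CRE was in the entries of Dusp1, of Crem starts 2 and 3, and of Btg2, whose expression was not analysed. A match describes letters and does not show that a factor binds there.

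Array medians ran from 798.3 to 879 in SHR and from 831.1 to 899.5 in WKY, and across probe sets, which are not independent of each other, Pearson's r on the log2 scale was 0.935 to 0.956 for 2 arrays of one strain. By time of day the settings files showed 2 hybridization runs, the first with SHR replicate 1 and the 3 WKY arrays, the second with SHR replicates 2 and 3. The ratio of 3′ to 5′ signal of the GAPDH control, a guide to RNA integrity, was 0.930, 0.947 and 1.09 in SHR replicates 1 to 3 and 0.901, 1.11 and 1.14 in WKY replicates 1 to 3. Of 9 markers of the adrenal cortex and 10 of the medulla, 6 and 9 were measured, and none was at 0 on any array.

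No member differed between the strains past the threshold. Of the 22 tested probe sets, limma called 0 at an adjusted p under 0.05, against 1.95% of the 5244 probe sets tested (1.07% higher and 0.877% lower in SHR). At an unadjusted p under 0.05 there were 3, one each of Dusp1, Klf10 and Cebpb, against 13.9% of all tested. The same 3 were the only tested members whose strains did not overlap, 1 with SHR above and 2 with SHR below, against 20.7% of all tested (10.2% above and 10.5% below). Many members varied widely between arrays of one strain, and the log2 differences of over 1 between strain means did not pass. In RNA of mixed cells, fewer cells of a type and less RNA per cell cannot be told apart.

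The NR4A receptors gave the 5 most positive differences between SHR and WKY among the members, while the other NR4A set, X86003_at of Nr4a3, stood at 0.27. The Nr4a1 probe set U17254_g_at read 38327.0, 56493.5 and 77272.6 in SHR replicates 1 to 3, against 5540.6, 29110.0 and 50340.0 in WKY replicates 1 to 3 (intensity, linear scale). WKY replicate 1 was the lowest array by far, and WKY replicate 3 lay above SHR replicate 1, so the strains overlapped. The mean was 57364 ± 19487 in SHR and 28330 ± 22410 in WKY (SD, n = 3 each). On the log2(intensity + 181.5) scale used for every difference below, which understates changes of dim probe sets, SHR minus WKY was 1.44 ± 0.70 (SE), with a 95% confidence interval from -0.19 to 3.06 and a limma adjusted p of 0.414. U17254_at, which is built on the same transcript sequence and is no independent reading, gave 1.36 ± 0.64 (adjusted p = 0.395). Without WKY replicate 1 the 2 differences shrank to 0.52 and 0.56, and within the first run, where SHR replicate 1 is set against the 3 WKY arrays, they were 0.92 and 0.86.

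Nr4a2, also known as Nurr1, is a receptor best known from dopaminergic neurons. Its probe set U01146_s_at read 2228.9, 7080.0 and 11212.1 in SHR replicates 1 to 3, against 955.1, 3499.6 and 4676.2 in WKY replicates 1 to 3. Replicate 1 was the lowest array in both strains, and SHR replicate 1 lay below WKY replicates 2 and 3. The dimmer L08595_at read 582.4, 2662.6 and 7317.8 in SHR and 268.0, 807.2 and 1503.5 in WKY, a spread of 12.6-fold within SHR alone. SHR minus WKY was 1.10 ± 0.67 for U01146_s_at (limma adjusted p = 0.512) and 1.48 ± 0.80 for L08595_at (0.453). Within the first run the sign turned, at -0.18 and -0.25. The difference of U01146_s_at was 0.47 without WKY replicate 1 and 0.62 without SHR replicate 3, and that of L08595_at was 0.97 without WKY replicate 1 and 0.70 without SHR replicate 3.

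For Nr4a3, known as NOR-1, the probe sets disagreed. By rc_AI176710_at it read 4184.4, 13519.6 and 23699.9 in SHR replicates 1 to 3 and 3082.8, 3228.9 and 8909.0 in WKY replicates 1 to 3, a difference of 1.27 ± 0.62 (limma adjusted p = 0.414) that was -0.094 within the first run. By X86003_at it read 5536.8, 5874.8 and 6377.3 in SHR and 1720.6, 7443.8 and 8696.3 in WKY, a difference of 0.27 ± 0.52 (0.861), although on the linear scale the SHR mean of 5929.6 lay just below the WKY mean of 5953.6. The first set was wide in SHR and the second wide in WKY, where replicate 1 was again the lowest array. The remaining set, rc_AI145834_at, failed the filter at 217.7 to 391.7 in SHR and 148.1 to 708.8 in WKY.

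**Figure D1:**
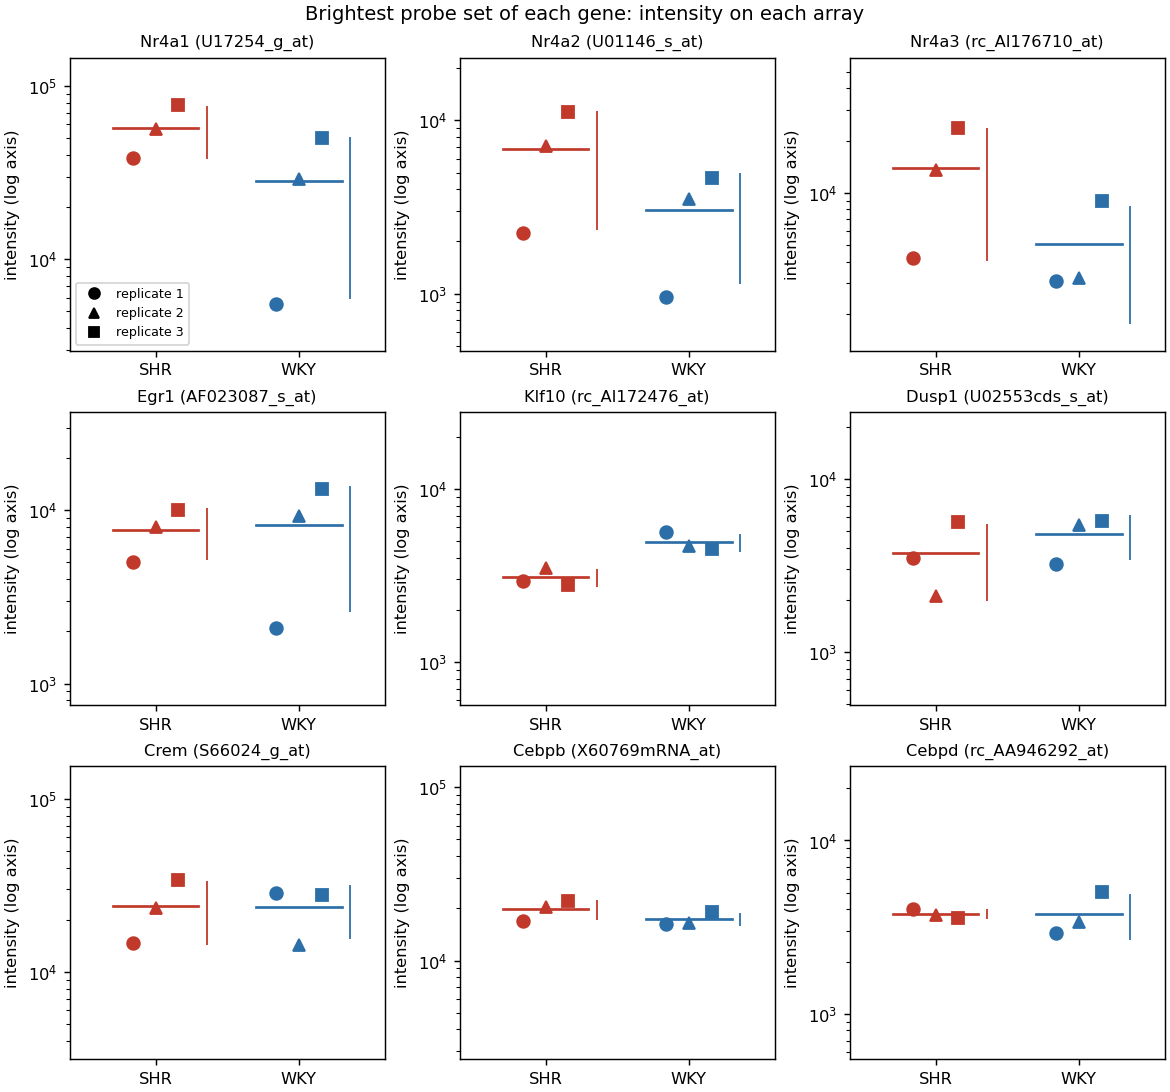
Intensity of the brightest probe set of each of the 9 genes on each array, on log axes that all span the same ratio. Points are arrays (circle, triangle and square for replicates 1, 2 and 3), horizontal lines are strain means and the vertical lines beside them are ± 1 SD. The strains overlap in every panel except Klf10, where the SHR arrays read 2797.4 to 3511.1 and the WKY arrays 4493.6 to 5603.4.

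Egr1 showed no strain difference but one of the widest spreads within WKY. AF023087_s_at read 5043.3, 7981.9 and 10102.4 in SHR replicates 1 to 3, against 2104.6, 9306.8 and 13192.8 in WKY replicates 1 to 3. The lowest and the highest of the 6 arrays were both WKY arrays, 6.27-fold apart, while the SHR arrays spanned 2.00-fold. M18416_at repeated this order, from 1187.9 to 2946.3 in SHR and from 615.1 to 8190.7 in WKY. The differences were 0.20 ± 0.60 for AF023087_s_at (limma adjusted p = 0.921), -0.42 ± 0.75 for M18416_at (0.851) and -0.013 ± 0.40 for rc_AI176662_s_at (0.993). The first of these had a 95% confidence interval from -1.18 to 1.58, so changes of over 2-fold either way lay within it. The fourth set, U75398_s_at, stood apart: it read 2103.0 to 2554.3 in SHR and 1999.9 to 2522.0 in WKY and was nearly level across arrays (0.030 ± 0.17, adjusted p = 0.961).

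Dusp1, the MAP kinase phosphatase, had a lower SHR average by all 3 of its probe sets, none past the threshold. S81478_s_at read 1221.5, 1045.6 and 1750.7 in SHR replicates 1 to 3, against 2164.8, 3914.3 and 3096.4 in WKY replicates 1 to 3, with every SHR array below every WKY array. Its difference was -1.08 ± 0.26 (limma adjusted p = 0.0978), the smallest p among the members, and was -1.17 within the first run and between -1.30 and -0.89 when 1 array was left out. The other sets overlapped between strains, at -0.57 ± 0.46 for S74351_s_at (adjusted p = 0.633) and -0.40 ± 0.35 for U02553cds_s_at (0.669). S74351_s_at read 1502.6, 2298.8 and 3147.9 in SHR and 1488.7, 4814.8 and 5283.5 in WKY, with replicate 1 low in both strains.

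Klf10, a zinc-finger repressor induced by transforming growth factor beta, had 1 of its 2 tested probe sets without overlap between strains, short of the threshold. That set, rc_AI172476_at, read 2931.0, 3511.1 and 2797.4 in SHR replicates 1 to 3 and 5603.4, 4662.4 and 4493.6 in WKY replicates 1 to 3, with every SHR array below every WKY array. Its difference was -0.65 ± 0.16, with a 95% confidence interval from -1.02 to -0.27 and a limma adjusted p of 0.107, and was -0.71 within the first run. The second tested set did not share it: rc_AI071299_at read 1454.5 to 1706.3 in SHR and 1188.9 to 2606.5 in WKY, at -0.081 ± 0.28 (adjusted p = 0.932). The third, U88630_at, failed the filter with SHR at 137.1 to 220.6 and WKY at 236.5 to 287.3, and with no filter it stood at -0.30 ± 0.19 (adjusted p = 0.636).

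Crem had similar averages in both strains while varying between arrays in an order of its own. S66024_at read 4426.5, 8748.9 and 14831.5 in SHR replicates 1 to 3 and 13844.4, 3857.7 and 10469.5 in WKY replicates 1 to 3. WKY replicate 1, the lowest of the 6 arrays in all 6 tested NR4A sets and in 3 of the 4 Egr1 sets, was the highest WKY array here, and WKY replicate 2 the lowest. U04835_at repeated this, at 4175.3, 6327.6 and 10594.7 in SHR and 10665.0, 2885.8 and 5769.5 in WKY, and so did S66024_g_at, which shares its sequence with S66024_at. The differences were 0.011 ± 0.53 (S66024_at), 0.21 ± 0.47 (U04835_at) and 0.0038 ± 0.35 (S66024_g_at), with limma adjusted p of 0.996, 0.884 and 0.996. Within the first run they were -0.87, -0.42 and -0.62. The fourth set, Z15158mRNA_at, failed the filter at 68.6 to 276.4 in SHR and 57.8 to 445.2 in WKY.

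Both Cebpb sets were steady within strains, at the 4.35 and 23.2 percentile of within-strain SD among tested probe sets, and both tested Cebpd sets lay near the middle, at 56.9 and 60.5. Cebpb by S77528cds_s_at read 9928.8, 11509.1 and 11286.8 in SHR replicates 1 to 3 and 8349.8, 8913.8 and 9013.3 in WKY replicates 1 to 3, with every SHR array above every WKY array. The difference was small, 0.31 ± 0.12 (limma adjusted p = 0.311), and 0.18 within the first run. X60769mRNA_at, the other Cebpb set, overlapped at 16808.2 to 22011.5 in SHR and 16251.8 to 19104.7 in WKY (0.19 ± 0.14, adjusted p = 0.605). Cebpd stood at 0.031 ± 0.21 by rc_AA946292_at (0.969) and 0.17 ± 0.24 by M65149_at (0.806), with 95% confidence intervals from -0.45 to 0.52 and from -0.38 to 0.72. Its last set, rc_AI045030_s_at, failed the filter at 174.9 to 226.0 in SHR and 179.3 to 362.4 in WKY.

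**Figure D2:**
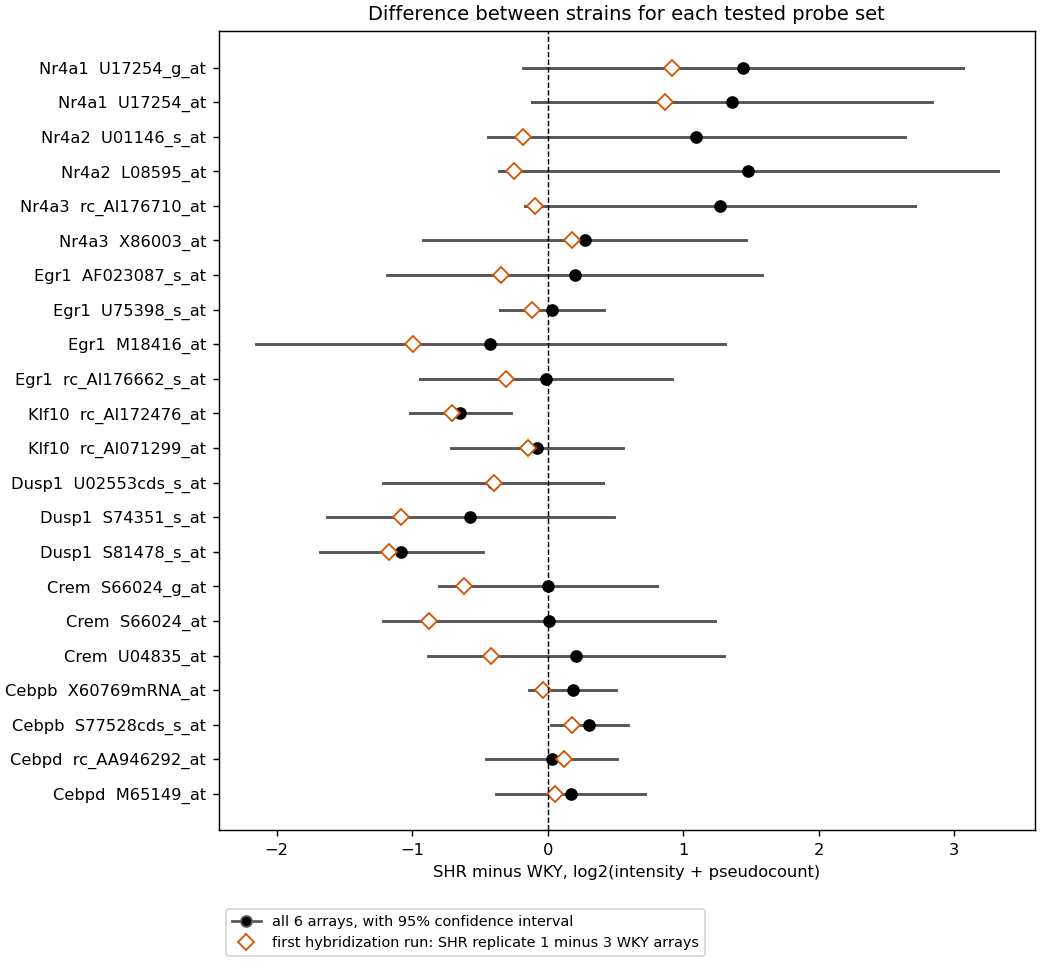
Difference between strains for the 22 tested probe sets, as SHR minus WKY on the log2(intensity + 181.5) scale, with filled circles for all 6 arrays, bars for 95% confidence intervals and open diamonds for the first hybridization run alone. Intervals of the NR4A sets are wide and include 0, and the diamonds of both Nr4a2 sets and of rc_AI176710_at lie just below 0.

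Positive differences outnumbered negative ones among the members. Of the 22 tested probe sets 15 had a positive difference, against 49.1% of all tested, and the median was 0.10 against -0.0069. A difference of at least 1 in size was found in 6 of them, 5 of NR4A genes and 1 of Dusp1, and in 4.1% of all tested. None of the 6 was called, and an uncalled difference of that size was found in 2.57% of all tested. The 6 tested NR4A sets were all positive, with a median of 1.32, but they read only 3 genes, and both sets of Nr4a1 share a sequence.

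Most members had a wider spread within a strain than the middle of the array. The within-strain SD of the log2 value had a median of 0.699 over the 22 probe sets and 0.256 over all 5244. Of the 22, 12 lay in the widest 10% of all tested probe sets: all 6 of the NR4A genes, 3 of 4 of Egr1, 2 of 3 of Crem and 1 of 3 of Dusp1. L08595_at (Nr4a2) had an SD of 1.35 and M18416_at (Egr1) of 1.28, at the 99.8 and 99.7 percentile. At the other end S77528cds_s_at (Cebpb) had an SD of 0.0905, at the 4.35 percentile, and U75398_s_at (Egr1) lay at the 17.6 percentile. Bright members were among the wide ones, with Nr4a1 (U17254_g_at) at the 97.8 percentile of brightness and an SD of 1.21. The members were chosen with earlier results of these data known, so these shares describe them and test nothing.

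**Figure D3:**
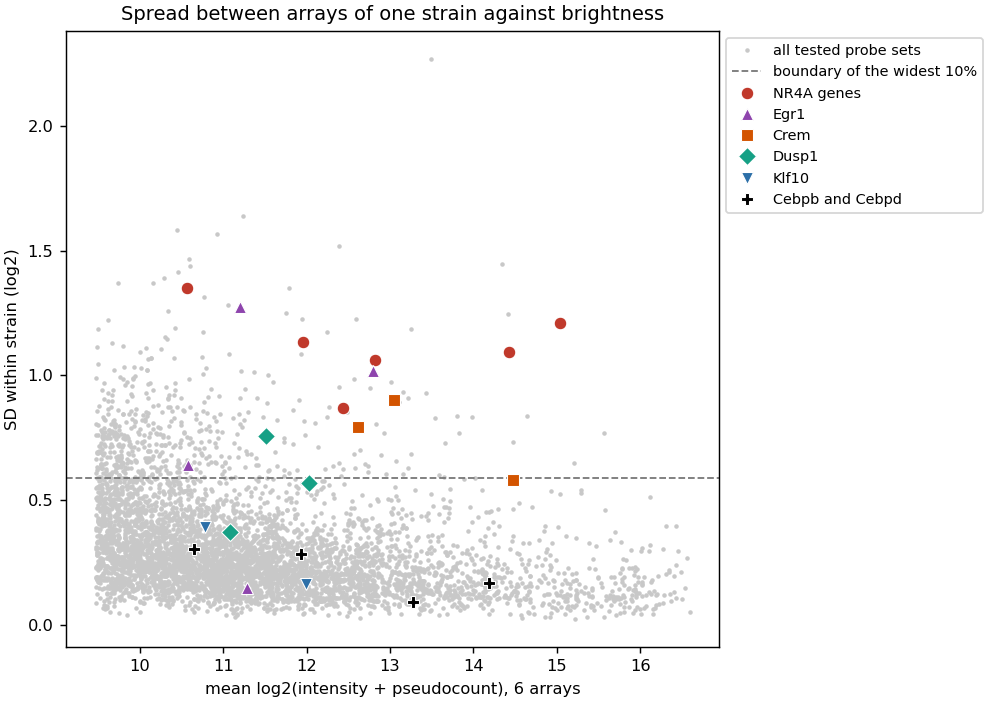
Standard deviation of log2 values within a strain against mean log2 value for all 5244 tested probe sets (grey), with the members in colour and a dashed line at the boundary of the widest 10%. The 6 NR4A sets and 3 of the 4 Egr1 sets lie above the line, while the Klf10, Cebpb and Cebpd sets lie below it.

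The spread had a common direction in many members. WKY replicate 1 was the lowest of the 6 arrays in 13 of the 22 probe sets, against 21.7% of all tested, and SHR replicate 3 was the highest in 10, against 13.6%. Within SHR, replicate 3 was the highest array in 19 of 22 and replicate 1 the lowest in 16, against 29.0% and 28.1% of all tested. Within WKY, replicate 3 was the highest in 15 and replicate 1 the lowest in 15, against 37.9% and 38.3%. By the brightest probe set of each gene, WKY replicate 1 was lowest of the 6 arrays in 6 of 9 genes and highest in 1, Klf10.

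**Figure D4:**
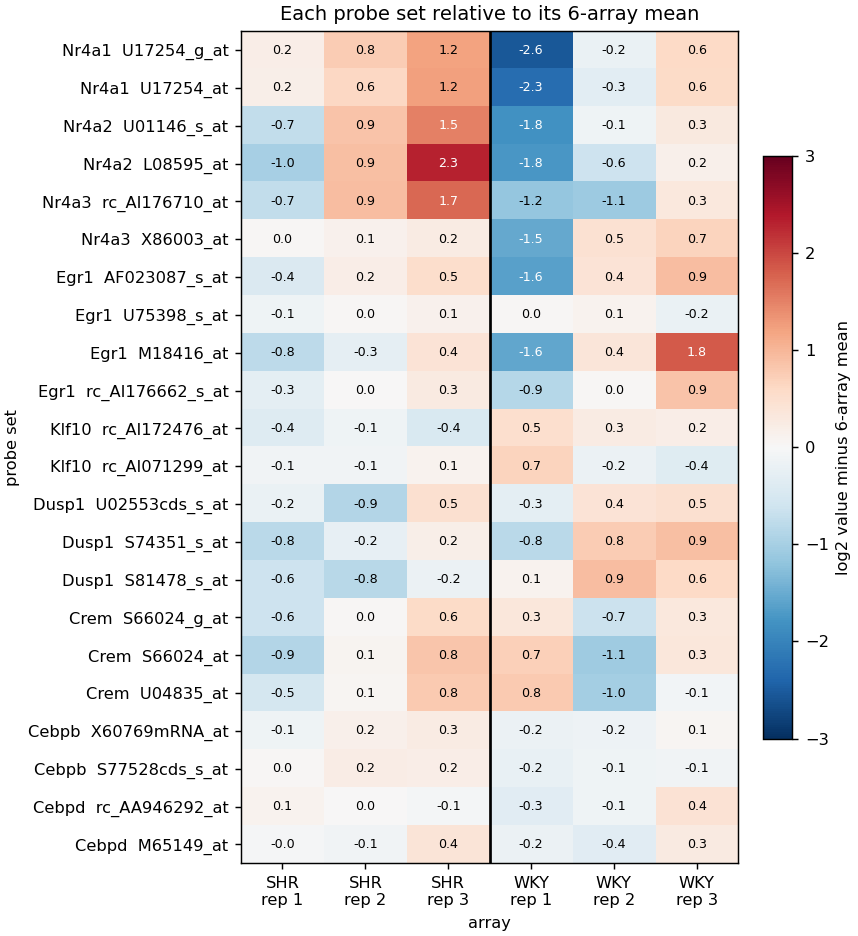
Each tested probe set (rows) on each array (columns) relative to its own mean over the 6 arrays, in log2 units, red above and blue below. SHR replicate 3 and WKY replicate 3 are mostly red and WKY replicate 1 mostly blue in the NR4A and Egr1 rows, while the Crem rows are red in WKY replicate 1 and blue in WKY replicate 2.

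Some technical values moved with this order, and their part in it was not tested. SHR replicate 1, the lowest SHR array in those 16 probe sets, was hybridized in the first run and the other 2 SHR arrays in the second. Among the 3 WKY arrays, all of the first run, the highest and lowest differed by 9.09-fold in Nr4a1 (U17254_g_at) and by 13.3-fold in Egr1 (M18416_at), and the SD within WKY was wider than within SHR in 15 of 22. The GAPDH ratio given above was lowest in replicate 1 and highest in replicate 3 of each strain. The other control ratios had other orders: beta-actin stood at 1.19, 1.35 and 1.22 in SHR replicates 1 to 3 and at 1.39, 1.25 and 1.28 in WKY replicates 1 to 3, and hexokinase at 2.16, 4.21 and 2.09 in SHR and at 2.54, 2.01 and 1.96 in WKY. The summed intensity of the 6 cortex markers was 277169, 236500.4 and 340899.2 in SHR replicates 1 to 3 and 269114.9, 310106.2 and 382751.7 in WKY replicates 1 to 3, highest in replicate 3 of each strain. The sum of the 9 medulla markers ran from 42064.6 to 53445.8 in SHR and from 56555.6 to 65269.8 in WKY, and within WKY was nearly equal in replicates 1 and 3, at 65024.5 and 65269.8. Summed markers of leukocytes (9 of 12 measured) ran from 6775.1 to 7300 in SHR and from 9741.9 to 22125.4 in WKY, highest in WKY replicate 2. Sums lay lower in every SHR array for fibroblast and capsule markers (7 of 7 measured, 51922.6 to 61472 in SHR and 80931.5 to 95873.4 in WKY), adipocytes (6 of 7, 28647.6 to 29468 and 29552.3 to 53185.2) and red blood cells (2 of 4, 34586.7 to 39858.6 and 43088.3 to 99452.4). Smooth muscle (5 of 5) ran from 7907.9 to 8792.1 in SHR and from 5031.5 to 7010.1 in WKY. Endothelium (4 of 7) summed to 5862.6, 6439.4 and 7414.5 in SHR replicates 1 to 3 and 5089.6, 6810 and 7374.5 in WKY replicates 1 to 3. This sum was lowest in replicate 1 and highest in replicate 3 of each strain, as in many members. Genes within some lists disagreed. As SHR minus WKY, smooth muscle Acta2 stood at 1.34, Tagln at 0.14 and Myh11 at -0.14. Among leukocyte genes Cd74 stood at -1.76, Cd37 at -0.84 and Cd4 at -0.43. Near level were Cd53 at -0.10, Cd14 at -0.099 and Ptprc at 0.050. Sparc stood at 0.093, while the other tested fibroblast and capsule genes were negative. Among adipocyte genes Lpl stood at 0.38 and Lep at 0.0042, while Cfd, Fabp4 and Slc2a4 were negative. Of the medulla genes Dbh was called at -1.29 (limma adjusted p = 0.00548). Slc18a1 stood at -0.82, Npy at -0.58, Pnmt at -0.57, Scg2 at -0.53 and Penk at -0.45, none of them called. Chgb at -0.081, Th at -0.023 and Ddc at 0.14 were near level. No marker was listed at 0, and the part of the marker sums in the differences of Dusp1, Klf10 and Cebpb between strains was not tested.

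Other early-response genes gave no call. Of 34 with a probe set 28 were tested by the brightest one, and 0 were called against 1.65% of all 3144 genes. An unadjusted p under 0.05 was found in 6, against 409 of all 3144, and the median difference was 0.19 against -0.0099. The smallest p belonged to Nfkbia, which encodes the inhibitor of NF-kappaB, at -0.80 ± 0.20 (limma adjusted p = 0.108), Hes1, a Notch target, at 1.30 ± 0.36 (0.142), and Dusp6, a phosphatase for ERK kinases, at 1.33 ± 0.44 (0.224). Of the 28, 8 lay in the widest 10% of probe sets by within-strain SD, against 8.37% of all genes.

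The AP-1 subunits, encoded by early-response genes of the same signals, shared the pattern in part. Jund rose, at 2031.8, 1835.6 and 1817.8 in SHR replicates 1 to 3 against 208.3, 118.5 and 127.8 in WKY replicates 1 to 3 (2.65 ± 0.23, limma adjusted p = 0.00135), and was steady within strains. Fos by its brightest set read 5885.6, 7373.5 and 8614.4 in SHR and 2841.4, 12579.9 and 9527.4 in WKY (0.035 ± 0.48, adjusted p = 0.983), with WKY replicate 1 lowest as in Egr1 (AF023087_s_at). By their brightest sets Junb stood at 0.18 ± 0.55 (0.923), Fosl2 at 0.51 ± 0.54 (0.724) and Jun at -0.49 ± 0.14 (0.140). Dimmer Jun sets disagreed: rc_AA945867_at stood at -1.37 (adjusted p = 0.00922), X17163cds_s_at at -0.46 (0.541) and rc_AA944014_at at 0.58 (0.673). A dimmer Fosl2 set, rc_AI230842_at, stood at -0.39 (0.709). The dimmer Fos sets were negative, X03347cds_g_at at -0.28 (0.902) and X06769cds_at at -0.32 (0.916), and Junb by rc_AA891041_at stood at 0.45 (0.830). Of the AP-1 genes 3 of the 5 tested, Fos, Junb and Fosl2, were in the widest 10% by spread within strains, against 8.37% of all genes.

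The signalling genes of the pathways that reach the members gave no call. Of all 3144 genes 1.65% were called, 409 had an unadjusted p under 0.05 and 8.37% lay in the widest 10%. For lists this short, 0 calls is near that share of calls. In the cyclic AMP and CREB arm 0 of 14 tested genes were called (2 at an unadjusted p under 0.05) and 0 lay in the widest 10%. Crem, itself a member, is counted here by S66024_g_at, at the 89.6 percentile of within-strain SD, while its other tested sets lay at 98.0 and 96.3. Prkar2b, a regulatory subunit of protein kinase A, stood at 0.67 ± 0.20 (limma adjusted p = 0.162), the catalytic subunit gene Prkaca at -0.56 ± 0.20 (0.264) and Prkar1a at -0.23 ± 0.12 (0.444). In the MAP kinase and serum response factor arm 0 of 12 were called (3 unadjusted) and 0 were in the widest 10%. Its smallest p belonged to the kinase genes Map2k6 at 0.59 ± 0.20 (0.224), Mapk9 at 0.53 ± 0.18 (0.224) and Map2k2 at 0.32 ± 0.13 (0.342).

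The lists nearest to the members' products gave no call either, where 1.65% of all 3144 genes were called and 409 had an unadjusted p under 0.05. Among 13 NR4A partners and adrenal genes of the corticotropin response 0 were called and 2 had an unadjusted p under 0.05. Pnmt, which makes adrenaline, was at -0.57 ± 0.13 (limma adjusted p = 0.0764), Nr0b1, a repressor of steroidogenic genes, at 0.85 ± 0.22 (0.122), and Nr5a1, which encodes the steroidogenic factor SF-1, at 0.34 ± 0.15 (0.367). Dbh, another gene of catecholamine synthesis, was not on this list. As a medulla marker it was called lower in SHR, at -1.29 ± 0.15 (limma adjusted p = 0.00548). Among 8 genes of the C/EBP family and its partners, Cebpb and Cebpd included, 0 were called or had an unadjusted p under 0.05, with Cebpa at -0.84 ± 0.43 (0.426) and the interleukin-6 receptor gene Il6r at -0.32 ± 0.23 (0.583). The 5 tested genes of the glucocorticoid response, Dusp1 and Cebpd included, likewise gave 0 and 0, with Klf9 at 0.14 ± 0.13 (0.693) and the kinase gene Sgk1 at -0.18 ± 0.25 (0.795).

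For the 3 member probe sets with the widest range over the 6 arrays, the genes of most similar profile were sought among 3135 others by the mean absolute difference of centred log2 values over the 6 arrays. Dusp6 was among the nearest 3 for all of them, at 0.50 for Nr4a2 (L08595_at) and 0.35 and 0.26 for Nr4a1 (U17254_g_at and U17254_at), where the median over all genes was 1.15, 0.93 and 0.88. Dusp6 read 3407.5, 4970.7 and 8319.4 in SHR replicates 1 to 3 and 930.8, 2546.5 and 3061 in WKY replicates 1 to 3. For Nr4a2 the nearest was Ppp1r15a, a stress-induced phosphatase subunit, at 0.40, and Fosl2 stood at 0.51. For Nr4a1 the other 2 were Alas1, the first enzyme of haem synthesis, at 0.32 and 0.42, and the phosphatase gene Ptpn23 at 0.48 and 0.44. Alas1 read 35554.9, 36913.4 and 34917.5 in SHR and 2304.5, 18222.9 and 38492.7 in WKY, level in SHR and lowest in WKY replicate 1.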

How the data were processed

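Adrenal glands were measured on 6 one-colour arrays. Linear intensity values, 1 for each probe set of an array, were deposited by the authors already scaled, with 2% trimmed means of 2503.6 to 2503.9. Their algorithm is not given in the sources used here. Settings files deposited by the authors (other values: fluidics module and order of runs) gave the hybridization runs, set apart by over 60 minutes of clock time. The calendar date was not used.

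Gene names came from GEO's annotation of the array, with symbols updated through RefSeq (GRCr8). No probe set named a member jointly with another gene. After 59 controls were left out, values were taken as log2(intensity + 181.5), the 20th percentile of values above 0, and the 5244 of 8740 probe sets with a mean above the 40th percentile were tested with limma 3.58.1 (intensity trend, R 4.3.3) as SHR minus WKY over 6 arrays, two-sided, with Benjamini-Hochberg adjustment over all of them and a threshold of 0.05. The number of arrays limits the precision. Genes in lists are represented by their brightest tested probe set. From each list called genes and the 3 of smallest p are named, all tested AP-1 subunits, and by profile the nearest 3 genes to 3 members. Marker lists are given by summed levels, with genes named where a list disagreed within itself. Members and lists were chosen with earlier results of these data known. Alternatives covered normalization, pseudocount, filter, variance model, replicate number, run, module (statmod 1.5.0) and each array left out. The fit was tested on simulated data.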

Additional observations from a re-analysis of the deposited data

How the results depend on the processing

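No alternative called a member except the replicate block, which called 1, Nr4a2 by U01146_s_at (1.10, limma adjusted p = 0.0437). Over all tested probe sets, deviations of same-numbered arrays correlated at 0.00088, 0.011 and 0.071, and not every array correlated best with its own number. Among the 22 member probe sets, replicate 1 was the lowest array of its strain in 16 for SHR and in 15 for WKY. The labels do not say that replicate numbers pair the samples, and whether they do in the members was not tested. The lowest adjusted p of a member was 0.0782 to 0.134 over the other normalizations, pseudocounts, filters and variance models and the module as a random block, 0.429 when run was added to the model, 0.476 in the first run only and 0.0805 to 0.195 without 1 array.

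Over all probe sets, 102 calls became 60 without the intensity trend, 53 with the replicate block, 20 when run was added to the model, 1 in the first run only, and 38 to 59 without 1 array. Fewer arrays, or a contrast on 1 SHR array, lower the number by construction. In the settings with run, that loss and a difference between the runs cannot be told apart. No regulator list's count of calls changed when a gene's probe sets were averaged.

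Taking only the first run, or adding run to the model (equal differences), the sign turned for Nr4a2 (-0.18 and -0.25), Nr4a3 by rc_AI176710_at (-0.094), Egr1 by AF023087_s_at (-0.34) and U75398_s_at (-0.11), Crem (-0.62, -0.87 and -0.42) and Cebpb by X60769mRNA_at (-0.037). Quantile normalization turned Crem to -0.027 and -0.0077, and a common median or a pseudocount of 1 turned Egr1 by rc_AI176662_s_at to 0.024 and 0.0099. The cause was not tested.

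Leaving out 1 array turned the sign of 10 probe sets. Nr4a3 by X86003_at ran from -0.43 to 0.68, and Klf10 by rc_AI071299_at from -0.29 to 0.23. Egr1 ran from -0.57 to 0.71 (AF023087_s_at), -0.060 to 0.10 (U75398_s_at), -1.31 to 0.39 (M18416_at) and -0.45 to 0.41 (rc_AI176662_s_at). Crem ran from -0.32 to 0.31 (S66024_g_at), -0.52 to 0.45 (S66024_at) and -0.25 to 0.66 (U04835_at), and Cebpd by rc_AA946292_at from -0.13 to 0.25. The 6 NR4A differences kept a positive sign except X86003_at, with Nr4a1 at 0.52 to 2.09 and 0.56 to 1.98, Nr4a2 at 0.47 to 1.74 and 0.70 to 2.35, and Nr4a3 by rc_AI176710_at at 0.73 to 1.96.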
